A study of Homo sapiens with 12 samples.

Results

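The histone genes were examined as targets of guide-free Cas9 in human cells. They were the protein-coding genes of GENCODE v44 whose symbols name H1, H2A, H2B, H3, H4 or macroH2A histones. A peak was counted for a gene when it overlapped any exon of that gene on the same strand. The rule gave 84 genes of 20046 protein-coding genes. Of these 84, 35 carried at least 1 peak in at least 1 of the 4 deposited peak lists. The share of all protein-coding genes with a peak in any list was not computed. This count and the counts by class, chromosome and family below therefore have no such reference, while the shares list by list do. In all, 223 of the 18128 peaks lay on histone exons, and 85 of the 223 lay on a single gene, H2AC11.

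The study asked which endogenous RNAs Cas9 contacts when no guide RNA is supplied. It used eCLIP, in which UV light crosslinks proteins to RNA in living cells, the protein is immunoprecipitated (IP), and the attached RNA fragments are sequenced. HEK 293T cells, a human embryonic kidney line, were transfected with pCDNA3.1 plasmids for a catalytically dead Cas9 without a nuclear localisation signal (dSpCas9), tagged with V5 or with 3xFLAG, or with the empty plasmid. The 12 libraries formed 6 groups of 2 biological replicates. The V5 antibody groups were the V5-dSpCas9 IP, its size-matched input and the V5 IP from empty vector cells. The FLAG antibody groups were the 3xFLAG-dSpCas9 IP, its size-matched input and the FLAG IP from empty vector cells. The size-matched input was RNA from the same membrane region, from 115 kDa up, without IP. All 12 libraries came from cells given 400 mJ/cm2 of UV, which the labels describe as applied 2 times. Expression was transient, from a plasmid, and the Cas9 level is not given in the peak lists.

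Each antibody had 2 peak lists, IP over size-matched input and IP over empty vector IP. Every peak carried a log2 enrichment (the log2 ratio of IP reads to control reads, at least 3.00 in every list) and a −log10 p, which stopped at 400. Each value combined both replicates, so no spread between replicates could be given, no test was run, and the depth of each library is unknown. The lists over input and over empty vector of 1 antibody shared their IP libraries and were not independent of each other. RNA levels of the genes were not part of the lists, so a gene without a peak and a gene with little RNA cannot be told apart, and the cell line could not be checked against marker genes.

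Histones package DNA. The core histones (H2A, H2B, H3 and H4) form the nucleosome, and H1 binds the linker between nucleosomes. Most histone genes lie in clusters and are transcribed in S phase. Their mRNAs have no intron and no poly(A) tail, and end in a conserved stem-loop that binds the stem-loop binding protein SLBP. Variant histones such as H3.3, H2A.Z and macroH2A come from genes with introns and polyadenylated mRNAs that are made throughout the cell cycle.

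The 84 genes were separated by the number of exons in their canonical transcripts, and those with 1 exon were split further by symbol. The 69 replication genes had 1 exon, with mRNAs of 386 to 2224 nt (median 487). The 7 spliced genes were H1-8, H2AZ1, H2AZ2, H3-3A, H3-3B, MACROH2A1 and MACROH2A2, with mRNAs of 866 to 3026 nt. The 8 other intronless genes included H2AX, which encodes an H2A variant that is phosphorylated at DNA breaks. The histone 3′ stem-loop, 16 nt long, was searched after the stop codon on the sense strand. It was found in 69 of the 69 replication genes, 0 of the 7 spliced genes and 3 of the 8 other intronless genes. It began 23 to 68 nt after the stop codon (median 36) in the replication genes.

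Of the 55 replication genes on chromosome 6, 23 had a peak, and of the 13 on chromosome 1, 5 had one. By class, 28 of the 69 replication genes, 5 of the 7 spliced genes and 2 of the 8 other intronless genes had a peak in some list. By list, 31 of the 84 histone genes (36.9%) had a peak in V5 IP over size-matched input, where 13.6% of all protein-coding genes had one. In FLAG IP over size-matched input 23 genes (27.4%) had a peak, against 13.2% of all genes. In V5 IP over empty vector IP 18 genes (21.4%) had a peak, against 6.78% of all genes. In FLAG IP over empty vector IP, 3 genes (3.57%) had a peak, against 4.96% of all genes. The histone share was thus above that of all genes in 3 lists and not in the fourth, the shortest list. All protein-coding genes were counted there whether or not they were expressed.

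Few histone genes met all 4 comparisons. The 4 lists were intersected on the same strand with at least 50% overlap, first within each antibody and then between antibodies, which left 749 intervals in the whole series. Of these, 16 lay on histone exons, 13 on H2AC11 and 3 on MACROH2A2. Of all protein-coding genes, 2.07% held such an interval, so that 2 of 84 histone genes was a share close to that of all genes. Next came 11 genes with peaks in both lists over input and in V5 IP over empty vector IP: H1-4, H2AC6, H2AC7, H2AC15, H2AX, H2BC21, H3-3B, H3C10, H4C2, H4C3 and MACROH2A1. A further 6 genes had peaks in both lists over input alone, 8 in V5 IP over input alone and 49 in no list. Besides H2AC11 and MACROH2A2, the gene H3C6 was the only histone gene with a peak in FLAG IP over empty vector IP, and it had none in either V5 list.

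**Figure D1:**
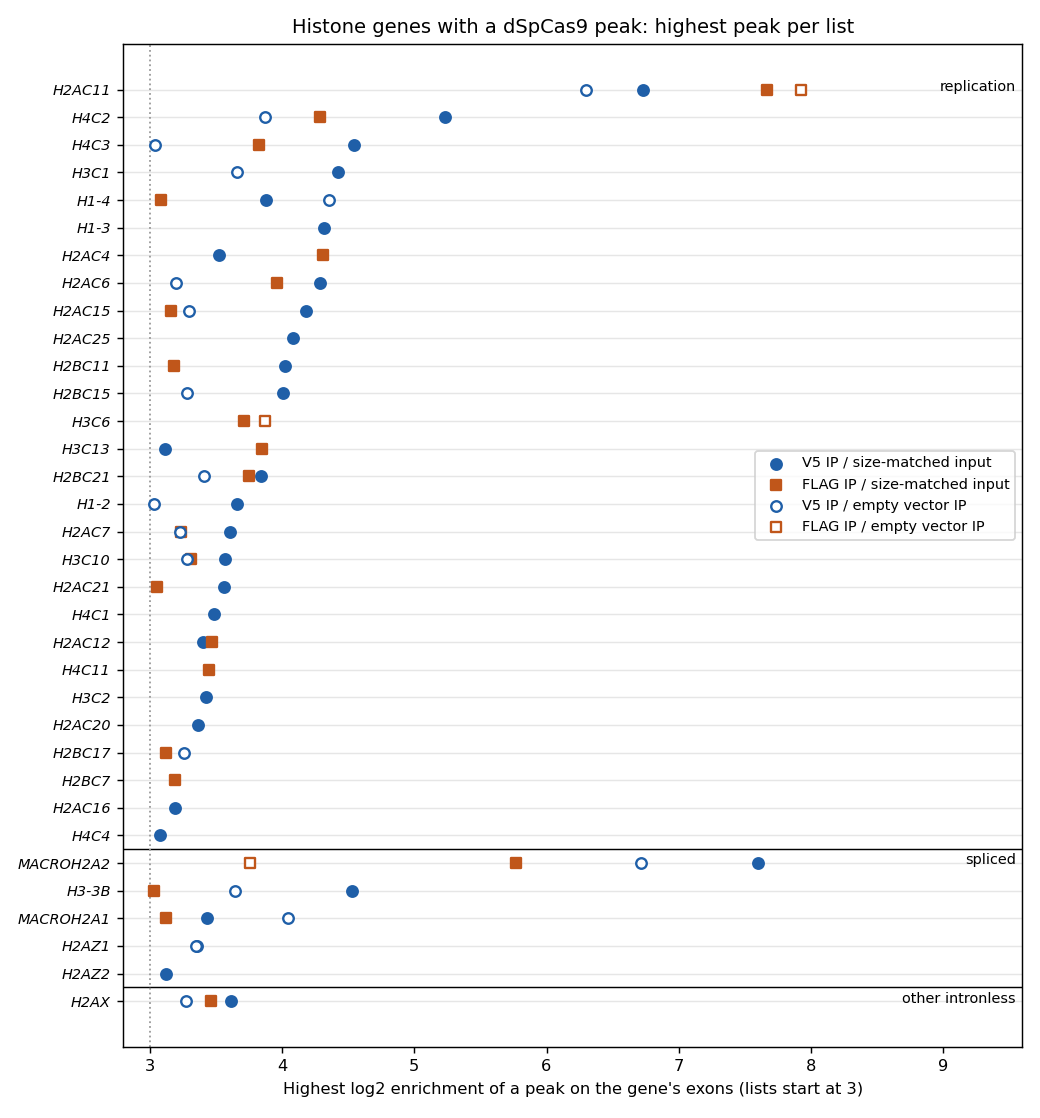
Highest log2 enrichment (x axis, from the lists' lower bound of 3) for the histone genes with a peak that are reported here (y axis, grouped by class); filled symbols are IP over size-matched input and open symbols IP over empty vector IP, circles V5 and squares FLAG. H2AC11 in all 4 lists, and MACROH2A2 in all but FLAG IP over empty vector IP (3.76), stand to the right of the other genes, whose highest value was 5.23 in H4C2.

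H2AC11 was the histone mRNA with the most peaks in every list and the highest peak in both FLAG lists, while MACROH2A2 had the highest histone peak in both V5 lists. H2AC11 (ENSG00000196787.4) encodes a core H2A and lies on the plus strand at chr6:27133043-27133535 (hg38), 1 exon of 493 nt with the coding sequence at positions 30 to 422 of the mRNA. Positions are counted from 1 at the annotated start. V5 IP over size-matched input held 16 peaks with log2 enrichments of 4.61 to 6.73. FLAG IP over size-matched input held 26 peaks of 5.12 to 7.67. V5 IP over empty vector IP held 17 peaks of 4.06 to 6.30, and FLAG IP over empty vector IP 26 peaks of 3.57 to 7.93. All H2AC11 peaks in 3 of the lists were at the −log10 p ceiling of 400, and 7 of 17 were in V5 IP over empty vector IP, where the lowest was 36.7. By highest peak, H2AC11 ranked 6th of 2717 genes in V5 IP over input, 2nd of 2639 in FLAG IP over input, 5th of 1360 in V5 IP over empty vector and 2nd of 995 in FLAG IP over empty vector.

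The peaks ran along almost the whole mRNA rather than at a single site. They covered 69.4% of the 493 nt in V5 IP over input, 80.9% in FLAG IP over input, 73.6% in V5 IP over empty vector and 82.2% in FLAG IP over empty vector. Among all genes with a peak, the median coverage of the canonical mRNA was 2.86% to 3.98% by list. H2AC11 ranked 1st in 3 lists and 2nd in V5 IP over input. These shares and ranks were not adjusted for mRNA length, and H2AC11 is a short mRNA. The gene ranked 2nd in FLAG IP over input was H2AC7, an mRNA of 510 nt with 2 peaks of at most 3.24. Its peaks were short, with median lengths of 11 to 15.5 nt, against 71 to 74 nt for all peaks of the lists, and most of them touched the next. With touching peaks merged, the 29 histone peaks of FLAG IP over empty vector IP became 7.

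The enrichment was uneven along the mRNA. The part that held the highest peak differed between the controls for both antibodies, while the order of the averages differed for V5 alone. Over input, the 3′ UTR held the highest H2AC11 peak of both antibodies, 6.73 at positions 411 to 481 for V5, a peak that began before the stop codon, and 7.67 at positions 457 to 490 for FLAG. Over empty vector, the highest peak of both antibodies lay in the coding sequence, 6.30 at positions 328 to 369 for V5 and 7.93 at positions 345 to 369 for FLAG. Averaged per covered nucleotide, V5 enrichment over input was 6.16 in the 5′ UTR, 5.85 in the coding sequence and 6.73 in the 3′ UTR. The V5 averages over empty vector were 4.99, 5.30 and 4.82. For FLAG the averages were 5.94, 6.11 and 7.55 over input and 4.45, 5.73 and 7.12 over empty vector. Thus the 3′ UTR stood highest in 3 of the 4 lists and lowest in V5 IP over empty vector IP. In FLAG IP over empty vector IP the values stepped up within the coding sequence, which ends at position 422. There the peaks between positions 88 and 280 had values of 3.96 to 4.89. Those between 281 and 490, which run on into the 3′ UTR, had values of 6.70 to 7.93.

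**Figure D2:**
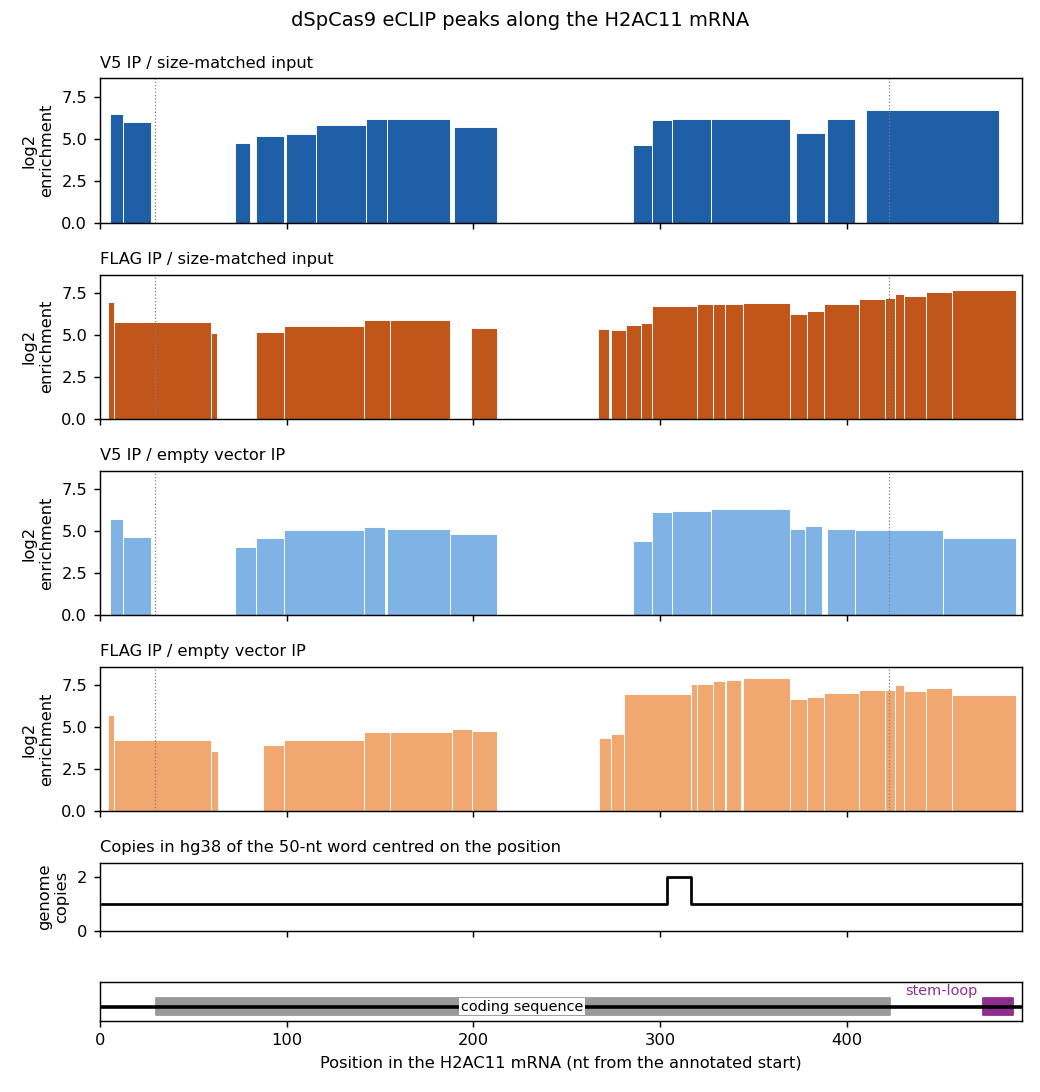
Log2 enrichment of each peak (bar height) against position in the H2AC11 mRNA (x axis, nt from the annotated start) in the 4 lists, each bar as wide as its peak; dotted lines mark the ends of the coding sequence, and the lower tracks give the copies in hg38 of the 50-nt word centred on each position and the gene model. The peaks cover most of the mRNA, and positions 213 to 266 lie in no peak of any of the 4 lists, a gap that runs on to position 285 in both V5 lists.

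A pair of coding stretches of H2AC11 on the plus strand of hg38 are shown in RNA letters, the highest peak over empty vector and the longest stretch in no peak. The first was the FLAG peak over empty vector at positions 345 to 369 (chr6:27133387-27133411), which lay in a peak of the other lists too:
H2AC11 positions 345 to 369: GGCGGUGUCCUGCCCAACAUUCAGG
The stretch in no peak of any list was positions 213 to 266 (chr6:27133255-27133308), 54 nt long:
H2AC11 positions 213 to 266: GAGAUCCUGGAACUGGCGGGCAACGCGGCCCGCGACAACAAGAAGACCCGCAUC
The capitals mark the whole of each stretch. The other positions in no peak of any list were 1 to 4, 64 to 72 and 491 to 493. Of 9 other H2A replication genes with peaks over input, 3 (H2AC4, H2AC6 and H2AC7) had a peak on the coding positions of the 54-nt gap.

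Because histone genes are near copies of each other, a read can come from more than 1 of them. The closest paralogs of H2AC11 were H2AC13, with 92.6% identity over the coding sequence, and H2AC16, with 91.6%. The longest stretch that the H2AC11 mRNA shared exactly with another member was 62 nt, at positions 279 to 340, shared with H2AC12. To measure this, every 50-nt word of each histone mRNA was counted on both strands of the primary chromosomes of hg38, and a position was called single-copy when the word centred on it occurred only in its own gene. In H2AC11, 97.4% of positions were single-copy, and the 13 that were not (positions 304 to 316) had 2 copies. With 30-nt words, 85.1% of the H2AC11 positions in peaks were single-copy. The 54-nt gap was 100% single-copy with 50-nt words and 72.2% with 30-nt words. How the authors' pipeline treated reads with several equally good positions is not given in the sources used here.

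The stretch at positions 345 to 369 separated H2AC11 from its paralogs by 2 to 4 bases. Capitals mark the bases that differ from H2AC11 at the same coding positions, 316 to 340:
H2AC11: ggcgguguccugcccaacauucagg
H2AC16: ggUgguguccugcccaacauCcagg
H2AC13: ggUggCguccugcccaacauCcagg
H2AC15: ggUgguguccugcccaaUauCcagg
H2AC12: ggUggugucUugcccaaUauCcagg
H2AC7: ggcgguguUcugcccaacauCcagg
All 8 of the closest paralogs, the 5 shown and H2AC6, H2AC14 and H2AC17, differed from H2AC11 at the rightmost base in capitals. A 47-nt stretch nearby, positions 285 to 331, was by contrast identical in H2AC12 and H2AC16 (0 differences) and differed by 2 bases in H2AC13. Neither H2AC12 nor H2AC16 had a peak on that stretch in any list, while H2AC11 had peaks there in all 4.

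The 3′ stem-loop of H2AC11 had a sequence found in that gene alone, as did the stem-loops of 6 other genes (H2AC15, H2AC20, H2AX, H2BC10, H3C6 and H4C13). The commonest of the 11 stem-loop sequences was shared by 41 of 72 genes, and 10 H4 genes shared another, with changes U4C and A13G relative to the commonest (positions counted from 1 at the first G of the stem-loop). H2AC11 had A13G alone. The stem-loops are given in capitals with up to 5 flanking bases on each side:
H2AC11: ccaacGGCUCUUUUCAGGGCCaccca
H2AC16: acaacGGCUCUUUUCAGAGCCaccua
H4C2: ccaauGGCCCUUUUCAGGGCCgccca
These lie at chr6:27133510-27133535 and chr6:27865773-27865798 on the plus strand and chr6:26026896-26026921 on the minus strand. Peaks covered all 16 nt of the H2AC11 stem-loop in 3 lists and 9 nt in V5 IP over input.

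Besides H2AC11, the stem-loop was mostly outside the peaks. Among the genes with a stem-loop and a peak, a peak reached it in 3 of 25 genes in V5 IP over input. The other lists gave 5 of 19 in FLAG IP over input and 3 of 14 in V5 IP over empty vector. In FLAG IP over empty vector it was 1 of 2, and the 1 was H2AC11. H2AC11 is counted in every list and H2AX in the first 3. In both V5 lists the genes reached were H2AC11, H2BC15 and H2BC21. In FLAG IP over input they were H2AC11, H2BC7, H2BC21, H3C6 and H4C11. The H2BC21 peaks reached 6 or 7 nt into the stem-loop, and its annotated mRNA runs on to 2224 nt. No peak on the other intronless gene H2AX lay near its stem-loop. The stem-loop is only 16 nt of each mRNA, and the part of its length in these counts was not tested.

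Peaks of the other replication genes lay mainly in the coding sequence. Over input and without H2AC11, 66 of 72 peaks (91.7%) had their midpoint in the coding sequence, 6 in the 3′ UTR and 0 in the 5′ UTR. The coding sequence made up 76.3% of the summed length of the 69 replication mRNAs. That sum covers a different set, since it includes H2AC11 and the 41 replication genes without a peak. H2BC21 alone gave 1801 of its 5755 nt of 3′ UTR. The coding share of only the genes with these peaks was not computed. Without H2AC11, the median log2 enrichment of replication peaks was 3.56 in V5 IP over input and 3.46 in FLAG IP over input, against 3.61 and 3.63 for all peaks of those lists. With H2AC11 the medians were 3.84 and 4.30. The height of histone peaks above the rest of the lists therefore rested on H2AC11.

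In the H2A family, the peaks of different genes fell on the same coding positions. The family had 17 replication genes, of which 10 had a peak over input. Coding positions 118 to 140, counted from the start codon, lay in a peak over input of all 9 H2A genes with such a peak besides H2AC11, and of H2AC11 itself. They were picked as the positions in peaks of the most genes in these same lists. In each of the 9 genes a V5 peak over input covered them all. A FLAG peak over input did so only in H2AC4, H2AC7, H2AC12 and H2AC15, and covered a part in H2AC6 and H2AC21. In the 9 genes, 54.6% of the coding nucleotides in peaks lay in the first of 3 equal parts of the coding sequence, 37.0% in the second and 8.35% in the last. The 50-nt words over these positions were 100% single-copy in all 10 genes. Of the 7 H2A replication genes without a peak, 4 (H2AC13, H2AC14, H2AC18 and H2AC19) were 0% single-copy there and the other 3 were 100% single-copy.

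The stretch at coding positions 118 to 140 is shown for 6 genes with a peak and for the 3 without a peak that were single-copy there. Capitals mark the bases that differ from H2AC11:
H2AC11: uaugccgagcgggucggggccgg
H2AC16: uaugcUgagcgggucggggccgg
H2AC12: uaugccgagcggguUggAgccgg
H2AC15: uaCgcUgagcgggucggUgccgg
H2AC6: uaCgcAgagcggguUggggcAgg
H2AC25: uauUcGgagcgCguGggCgccgg
H2AC17: uaCgcUgagcgggucggggccgg
H2AC8: uaCUccgaAcgAgucggggccgg
H2AC1: uaugcAgagcggAuAggggcAgg
The first 6 had a peak and the last 3 (H2AC17, H2AC8 and H2AC1) had none in any list. H2AC11 lies here at chr6:27133189-27133211 on the plus strand and H2AC25 at chr1:228457678-228457700 on the minus strand. H2AC16 and H2AC17 differed from H2AC11 by 1 and 2 bases, and H2AC16 had a peak while H2AC17 did not. The H2AC16 peak was in V5 IP over input alone, at 3.19, near the lower bound of the lists. The RNA levels of both genes are unknown.

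All peaks over input on the other H2A replication genes were below the lowest on H2AC11 (4.61). H2AC6 had peaks of up to 4.29 in V5 IP over input, 3.96 in FLAG IP over input and 3.20 in V5 IP over empty vector. H2AC4 was among the few genes with a higher FLAG value, 4.31 against 3.52 for V5 over input, and had no peak over empty vector. H2AC15 had 4.18, 3.16 and 3.30 in V5 over input, FLAG over input and V5 over empty vector. H2AC7 had 3.61, 3.24 and 3.23 in the same lists, and its peaks covered 69.2% of the mRNA in FLAG IP over input. All 5 histone peaks that also lay on an exon of a second protein-coding gene were H2AC7 peaks, shared with ENSG00000282988. H2AC25 reached 4.09 and H2AC20 3.37, both in V5 IP over input alone. H2AC12 and H2AC21 had peaks of 3.05 to 3.56 over input from both antibodies, and H2AC16 a single V5 peak of 3.19.

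The other families each had their own peak positions. In H2B, all coding nucleotides in peaks over input (345 nt in 5 genes) lay in the last of the 3 parts of the coding sequence, and 4 of the 5 genes shared positions 331 to 348. In H3, 58.1% lay in the second part, and 4 of 5 genes shared positions 194 to 199. In H4, 41.7% lay in the last part and 38.8% in the second, and no position was in a peak of more than 3 of 5 genes. In H1, 3 genes had peaks, and all 3 shared coding positions 245 to 253. The V5 and FLAG peaks over input were pooled in these counts. In H1, H1-4 covered the shared positions with a FLAG peak only (3.09), and H1-2 and H1-3 with V5 peaks only. In H2B, H2BC11 and H2BC17 covered them with FLAG only and H2BC15 with V5 only. In H3, H3C6 and H3C13 covered them with FLAG only and H3C1 with V5 only. Neither antibody alone thus gave the shared positions of H1, H2B or H3 in all genes counted. The shared positions named were again picked as those in peaks of the most genes. The paralogs within a family share sequence, so these genes are not separate observations.

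**Figure D3:**
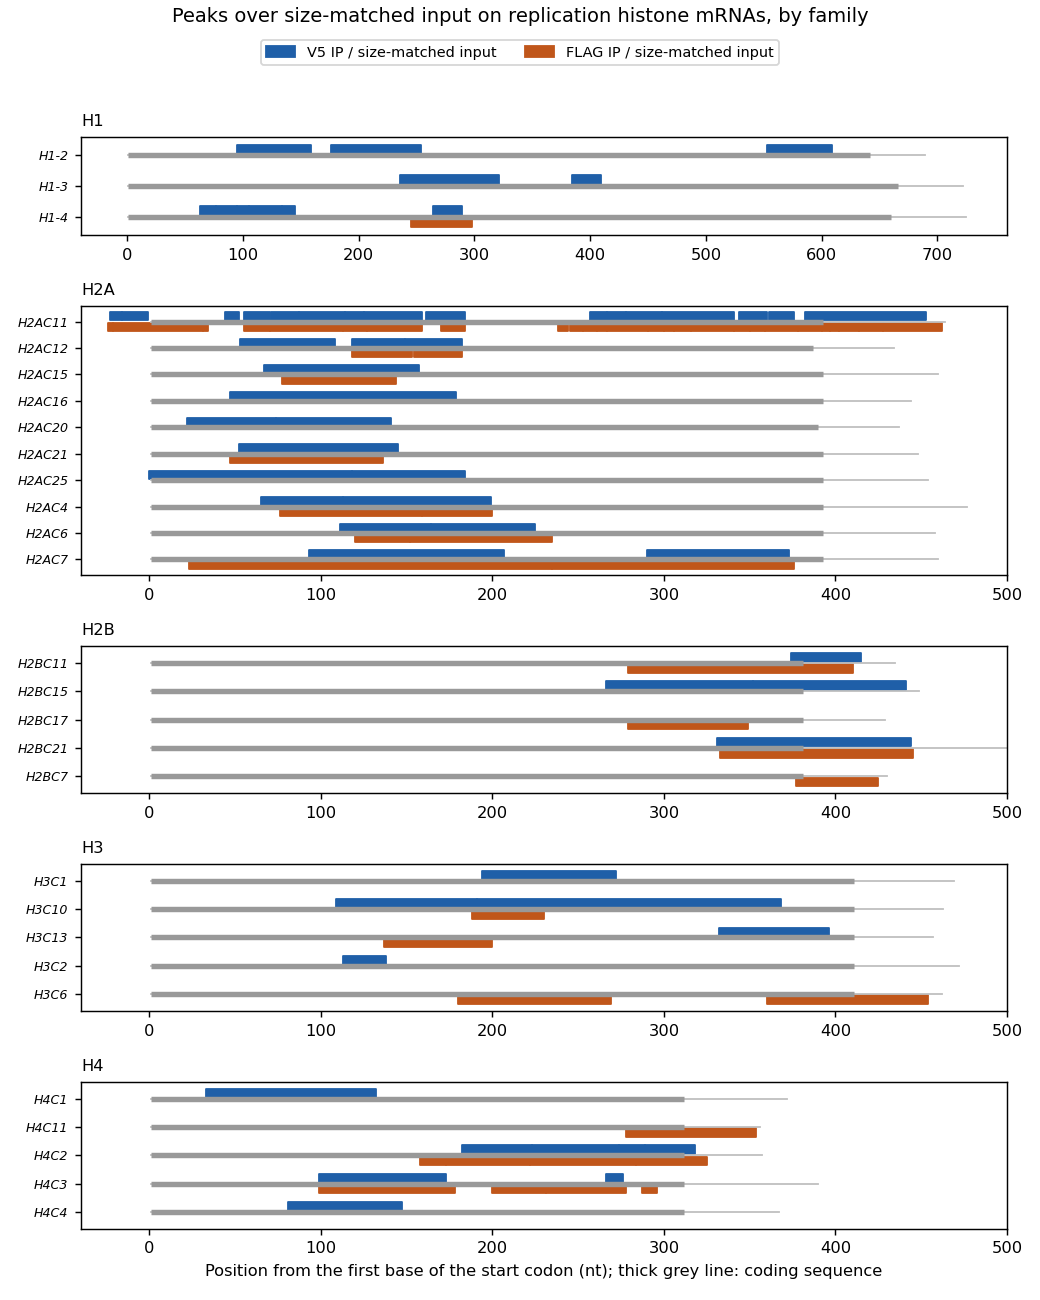
Peaks over size-matched input along replication histone mRNAs, 1 row per gene with a peak, by family; the x axis is the position from the first base of the start codon (nt), bars above each line are V5 and bars below FLAG, the thick grey line is the coding sequence and the thin line the 3′ UTR (cut off at 500 nt for H2BC21). The H2A peaks stack over positions 118 to 140 and the H2B peaks over the 3′ end of the coding sequence.

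H4 genes encode the core histone H4 from many loci, and 5 of 15 had a peak. H4C2 was the strongest histone gene after H2AC11 and MACROH2A2. Its 4 peaks over input reached 5.23 with V5 and 4.28 with FLAG, and its 4 V5 peaks over empty vector reached 3.87. Over input the H4C2 values were higher toward the 3′ end of the coding sequence, from 4.37 to 5.23 with V5 and from 3.43 to 4.28 with FLAG, while the V5 values over empty vector were 3.37, 3.80, 3.87 and 3.69 in that order. H4C3 had 2 V5 peaks over input of up to 4.54, 4 FLAG peaks of up to 3.83 and 1 V5 peak over empty vector of 3.04. H4C1 (3.48) and H4C4 (3.08) had 1 peak each in V5 IP over input and H4C11 1 in FLAG IP over input (3.45). Of H4C11 positions, 13.1% were single-copy.

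H3 replication genes encode core H3, and 5 of 13 had a peak. H3C1 had a V5 value of 4.42 over input and 3.66 over empty vector, and no FLAG peak. H3C10 had 3.57, 3.31 and 3.28 in V5 over input, FLAG over input and V5 over empty vector. H3C6 had the reverse pattern, with FLAG values of 3.71 over input and 3.87 over empty vector and no V5 peak, at −log10 p of 4.99 and 4.12. H3C2 had a single V5 peak of 3.42 over input. H3C13 had 1 peak from each antibody over input at different places, with 30.1% of its positions single-copy.

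H2B replication genes had the fewest peaks for their number, with 5 of 18 genes. H2BC21 was the only one in both lists over input and in V5 IP over empty vector, with values of 3.84, 3.75 and 3.41. Its peak lay at nearly the same place in all 3 lists, mRNA positions 373 to 486. H2BC15 had V5 values of 4.01 over input and 3.28 over empty vector. H2BC11 had 4.02 with V5 and 3.19 with FLAG over input. H2BC17 had 1 FLAG peak over input (3.12) and 1 V5 peak over empty vector (3.26), and H2BC7 a FLAG peak of 3.19.

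Of the 6 H1 replication genes, which encode linker histones, 3 had a peak. H1-4 had 6 V5 peaks over input of 3.31 to 3.88 and 9 over empty vector of 3.12 to 4.36, and on peaks with the same borders the value over empty vector was the higher in 4 of 5. Its FLAG IP held 1 peak over input, 3.09, and none over empty vector. H1-2 had 3 V5 peaks over input of up to 3.66 and 1 over empty vector of 3.03, and H1-3 had 2 V5 peaks over input of up to 4.32. These H1 peaks were 100% single-copy.

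MACROH2A2 was the other gene present in all 4 comparisons, and its peaks formed a single site rather than a run along the mRNA. MACROH2A2 (ENSG00000099284.15) encodes a macroH2A, a variant with a large macrodomain that is found in repressed chromatin. It lies on the plus strand at chr10:70052544-70112282 and has 9 exons and a canonical mRNA of 1932 nt. The site lay in the 3′ UTR, in the last exon, at chr10:70111749-70111839, which began 66 nt after the stop codon. V5 IP over input held 3 adjoining peaks there of 6.74, 6.86 and 7.60, and V5 IP over empty vector IP 3 with the same borders of 5.85, 5.97 and 6.72. FLAG IP over input held 2 peaks there of 4.92 and 5.77, and FLAG IP over empty vector IP 2 of 3.28 and 3.76. All of the peaks were 100% single-copy.

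The 2 antibodies differed in size at this site. The V5 value of MACROH2A2 was the highest of any of the 2717 genes in V5 IP over input and 3rd of 1360 over empty vector. The FLAG value ranked 28th of 2639 over input and 442nd of 995 over empty vector. Within the site, the highest V5 value lay at the 3′ end, positions 1474 to 1489, in both V5 lists. FLAG IP over input also had 1 peak of 3.34 in the 5′ UTR, which no other list had. In FLAG IP over input the peaks covered 138 of the 1932 nt of the MACROH2A2 mRNA (7.14%). The H2AC11 peaks of that list covered 399 of 493 nt (80.9%), in a shorter mRNA.

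The MACROH2A2 site held a sequence and structure feature that the study searched for. This feature, the GU-loop:5nt-stem, was taken as a G and a U, with the U at a predicted pairing probability below 0.7, followed by 5 bases that are each predicted to pair (probability above 0.5). The match in the 3′ UTR, at chr10:70111790-70111814, lay within a peak of all 4 lists, and the GU and the 5 stem bases are in capitals:
MACROH2A2 positions 1440 to 1464: ccgggcagGUCCUGCcggcgcaggg
The U had a pairing probability of 0.676 and the lowest of the 5 stem bases had 0.69. In H2AC11, the match within peaks of all 4 lists was in the coding sequence at chr6:27133193-27133217, at the H2A stretch described above:
H2AC11 at coding position 130: ccgagcggGUCGGGGccggcgcgcc
Its U had a pairing probability of 0.517. These were the 2 of 215 matches on histone mRNAs that lay in a peak of all 4 lists.

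Over all histone peaks the feature was not more frequent than in the lists as a whole. It was in 35.4% of the 79 histone peaks in V5 IP over input, against 41.3% of all peaks, and in 24.6% of the 65 in FLAG IP over input, against 39.3%. Histone peaks had median lengths of 51 and 41 nt, against 74 and 71 nt for all peaks, and the part of length in these shares was not tested. Without the H2AC11 peaks, an alternative chosen after seeing the data, the shares were 41.3% and 35.9%. For the replication genes alone, without H2AC11, they were 34.1% and 28.6%, with a median peak length of 62.5 nt in both lists. At the shared H2A stretch, a GU at coding position 130 was present in 10 of 10 genes with a peak and 6 of 7 without. The full match at that position was called in 4 of the 10 and 2 of the 7. A match was found somewhere in 33 of 35 histone mRNAs with a peak and 44 of 49 without.

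Other spliced variants had weaker and less repeated peaks. H3-3B, 1 of a pair of genes for H3.3, had 6 V5 peaks over input of 3.06 to 4.53, the highest in the 5′ UTR at mRNA positions 5 to 35. A V5 peak with the same borders stood at 3.64 over empty vector. FLAG IP over input held 1 peak on H3-3B, 3.03, in the coding sequence. MACROH2A1, the paralog of MACROH2A2, had its repeated peaks in the coding sequence near the start codon, at mRNA positions 220 to 375, with V5 values of up to 3.43 over input and 4.05 over empty vector and a FLAG value of 3.12 over input. None of the MACROH2A1 peaks had its midpoint in the 3′ UTR, where the MACROH2A2 site lay. H2AZ1 had V5 peaks of 3.36 over input and 3.35 over empty vector just after its stop codon, and H2AZ2 a V5 peak of 3.12 over input. H3-3A and H1-8 had none, and 10.3% of H3-3A positions were single-copy.

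Among the other intronless genes, H2AX had 1 peak in each of 3 lists at nearly the same place around the start of its coding sequence, with 3.61 in V5 over input, 3.46 in FLAG over input and 3.27 in V5 over empty vector. Over input, the midpoints of 9 of 19 peaks on spliced genes lay in the 3′ UTR, which made up 54.4% of the summed mRNA length of that class.

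**Figure D4:**
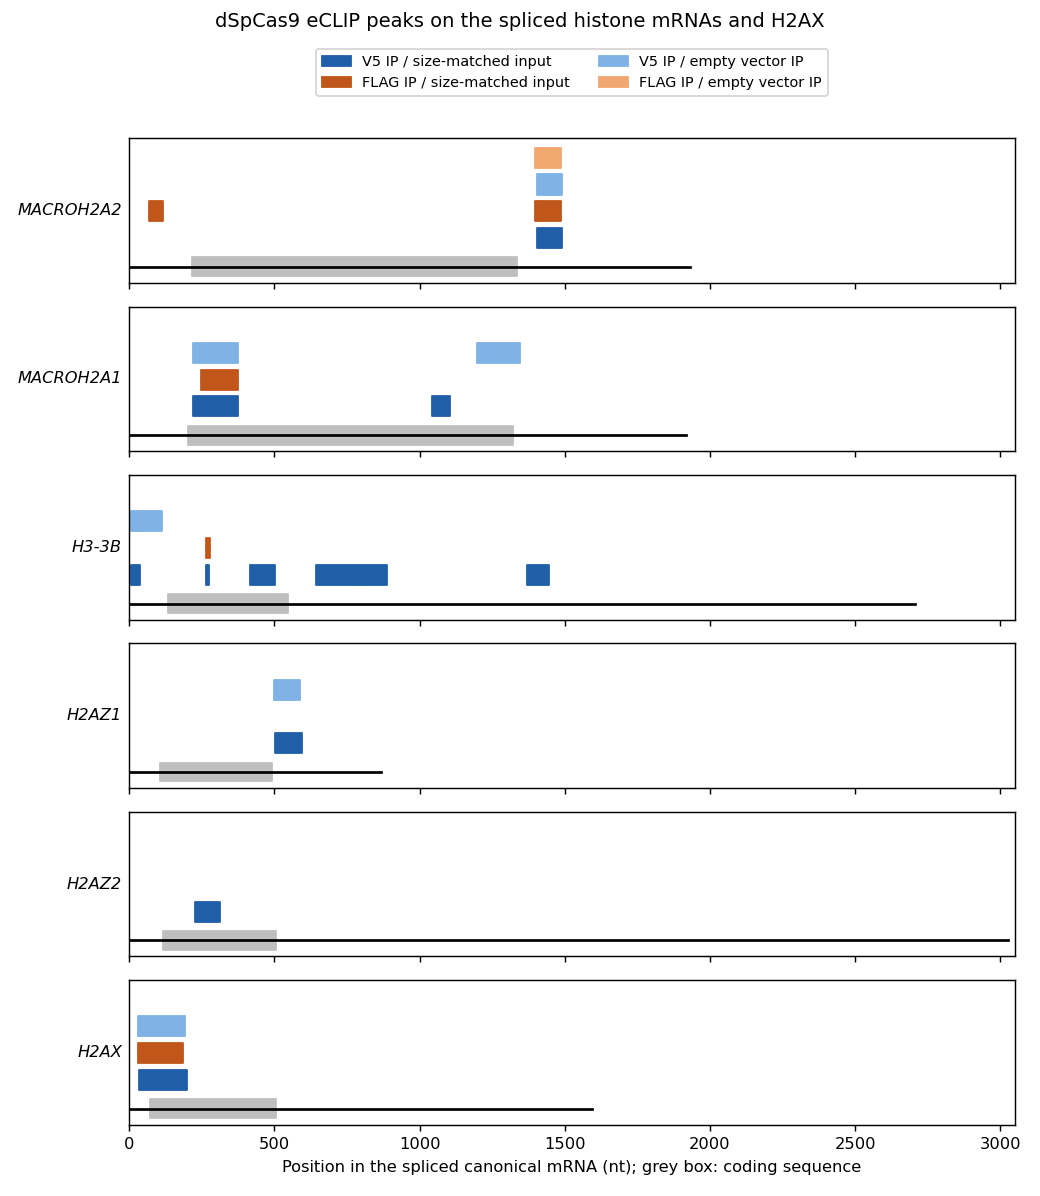
Peaks of the 4 lists on the spliced canonical mRNAs of 5 spliced histone genes and H2AX; the x axis is the position in the mRNA (nt), the grey box is the coding sequence, and coloured bars are peaks, 1 row per list. MACROH2A2 has 1 site in the 3′ UTR in all 4 lists, while the peaks of MACROH2A1 and H2AX lie near the start of the coding sequence.

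The 2 antibodies and the 2 controls were set side by side for the same genes. Of 19 genes with peaks over input from both antibodies, the V5 maximum was higher in 15 and the FLAG maximum in 4 (H2AC4, H2AC11, H2AC12 and H3C13). The V5 minus FLAG difference ran from −0.94 in H2AC11 to 1.83 in MACROH2A2, with a median of 0.37. On peaks with the same borders in both V5 lists, the value over input was higher than that over empty vector in 7 of 9 H2AC11 peaks and in 14 of 20 peaks of other genes. The 6 exceptions among the other genes lay on H1-4 and MACROH2A1, with differences of up to −0.90. On H2AC11 peaks with the same borders in both FLAG lists, the value over input was higher in 7 of 16.

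Genes with more repeated sequence had fewer peaks, at the low end. The 6 replication genes with no single-copy position, the identical pairs H2AC18 and H2AC19, H3C14 and H3C15, and H4C14 and H4C15 on chromosome 1, had no peak in any list. Of the 7 replication genes with some but at most 50% single-copy positions, 2 had a peak. Of the 6 with more than 50% and at most 90%, 2 had one. Of the 17 with more than 90% but not all positions single-copy, 13 had a peak, and of the 33 with every position single-copy, 11 had one. The share with a peak was thus not highest among the genes without any repeated 50-nt word. Within replication genes with a peak, 95.4% of the positions in peaks and 90.9% of the positions outside them were single-copy, and in the genes without a peak 76.0% were. The part of shared sequence in which genes had a peak was not tested.

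**Figure D5:**
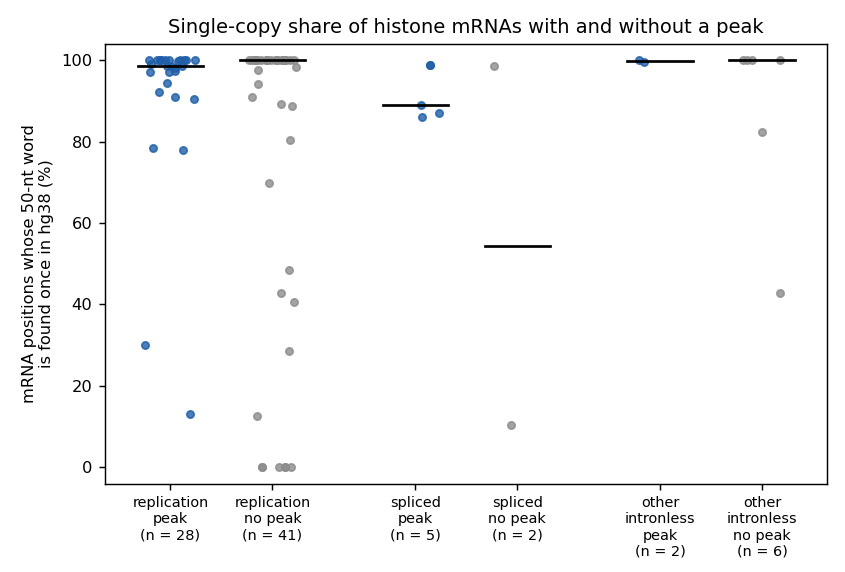
Share of mRNA positions whose centred 50-nt word is found once in hg38 (y axis, percent) for histone genes with a peak in any list (blue) and without (grey), by class; each point is a gene and each black line a median. The 6 genes at 0% have no peak, while most genes of either kind are near 100%.

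Factors that make or handle histone mRNA and protein were counted as well. Of 13 genes listed as histone mRNA 3′ end factors, 5 had a peak in V5 IP over input. The other counts were 8 in FLAG IP over input, 2 in V5 IP over empty vector and 0 in FLAG IP over empty vector. The shares of all protein-coding genes in these lists were 13.6%, 13.2%, 6.78% and 4.96%. SLBP, which binds the histone stem-loop, had values of 4.42, 3.49 and 3.35 in the first 3 of these lists. LSM11, a subunit of the U7 particle that cuts histone pre-mRNA, had 4.21, 3.67 and 4.10. Of 28 genes for histone chaperones and transport, 10, 10, 9 and 1 had a peak in the 4 lists in the same order, to be read against the same shares. MCM2, a helicase subunit that also binds H3 and H4, was the only 1 with an interval in the intersection, with values of 5.23, 4.09, 4.27 and 3.05.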

How the data were processed

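The deposited files were 4 peak lists in BED form from 12 eCLIP libraries. Per the labels and methods, the authors aligned reads to hg38 (GRCh38) with an eCLIP pipeline and kept peaks shared by both replicates by Irreproducible Discovery Rate. The submitters' processing notes name UMI-tools 1.0.0, cutadapt 1.14, STAR 2.4.0i and SAMtools 1.6. The deposited log2 value is the geometric mean over replicates of the IP to control read ratio, and the authors deposited its p-value as −log10. Each value combines both replicates and library depth is not in the lists, so no interval or replicate spread could be given.

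Peaks were assigned to GENCODE v44 exons with bedtools 2.31.1. Words of 50 nt were counted in hg38, and pairing was predicted with ViennaRNA 2.7.2 (window 70 nt, 50 nt of flank). Named were the genes in the intersection, the 10 with the highest mean of both maxima over input, the spliced and other intronless genes with a peak, and families by count, except for a gene that is not reported here, with the remaining genes with peaks added after their values were seen. No test was run. The members and lists were chosen with earlier results of these data known. Word counts, intersection and feature search were tested on simulated data.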

Additional observations from a re-analysis of the deposited data

How the results depend on the processing

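With a limit of log2 4, histone peaks numbered 33, 32 and 25 in V5 over input, FLAG over input and V5 over empty vector, from 79, 65 and 50. Histone genes with a peak numbered 13, 5, 4 and 1, from 31, 23, 18 and 3 with FLAG over empty vector last. The shares of all protein-coding genes at log2 4 were not computed. Whether the histone share stayed above that of all genes at this limit is therefore not known. Merging touching peaks gave 34, 27 and 7 peaks in FLAG over input, V5 over empty vector and FLAG over empty vector, from 65, 50 and 29. The 16 intervals of the intersection became 37 with an overlap of 1 nt and 10 when 50% of both intervals had to overlap. The 2 genes stayed 2 under these overlaps and became 1 with log2 4 required in all 4 lists; the cause is the limit itself, since MACROH2A2 reached 3.76 in FLAG over empty vector. The other 55 alternative values of these results, which include the region and feature shares without H2AC11, moved by less than 1.5 times or stayed within the counting interval. No paired analysis was possible because the result comes from no test and each deposited value combines both replicates.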

Other observations

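No peak of any list lay on an exon of 91 further histone loci outside the rule, among them histone pseudogenes and CENPA, the centromeric H3. Neither H2AC13 nor H2AC14, a pair of H2A genes with 42.8% and 40.5% single-copy positions, had a peak, although H2AC13 was the closest paralog of H2AC11.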
